A study of Mus musculus with 6 samples.

Results

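The genes described here encode 10 glycoproteins of the provisional and scar matrix: Fn1, Postn, Tnc, Sparc, Thbs1, Thbs2, Thbs3, Vcan, Tgfbi and Aebp1. They were chosen by symbol, and all 10 were found once each among the 33679 genes of the deposited expression table. RNA came from kidneys after unilateral ureteral obstruction, surgery that blocks urine outflow on 1 side and leaves a scarring kidney. Every kidney was obstructed, in wild type mice as in Cd248 KO mice, and no sham or contralateral kidney was compared. The sources used here do not give strain, age, sex, days of obstruction or the design of the Cd248 allele. The labels name 3 knockout and 3 wild type samples, of which knockout replicate 1 and wild type replicates 1, 2 and 3 were used. The other knockout samples, replicates 2 and 3, were not analysed here. Pooled RNA is mentioned in the labels' protocols, which do not say that the replicates were separate animals, so each p-value reflects scatter among these libraries only, and that scatter may be technical.

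Matricellular proteins are secreted into the matrix but act mainly as signals and adaptors rather than as load-bearing fibres. Fibronectin forms the first scaffold of a wound, onto which collagen fibrils are assembled, and cells grip it through integrins. Periostin, tenascin-C and the thrombospondins are scarce in the healthy adult kidney interstitium and are made by activated fibroblasts after injury. Cd248 encodes endosialin, a surface glycoprotein of fibroblasts and pericytes.

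Levels are given as FPKM, fragments normalized to transcript length and library size, a scale that allows genes of different length to be compared. A value given for the knockout "against" 3 others is set beside wild type replicates 1, 2 and 3 in that order. Cd248 itself was listed at 0 for the knockout against 9.03, 9.57 and 8.78 FPKM, a direction that followed the labels. Read depth is unknown. FPKM totals ran from 267394 to 304426 per library, and log2 values over the tested genes correlated at 0.975 to 0.978 among the wild type libraries and at 0.932 to 0.940 between them and the knockout library. Kidney tubule genes were present in every library, with Umod, the uromodulin of the loop of Henle, at 473 FPKM against 340, 640 and 560 FPKM. A difference below is the knockout value minus the wild type mean on the log2(FPKM + 1) scale, which understates the change of low genes. It was tested with limma over the 16871 genes that averaged 0.5 FPKM or more, and all 10 genes passed that filter, each with at least 1.17 FPKM in every library.

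The 10 genes were lower in the knockout library throughout. All 10 lay below every wild type library, as did 31.2% of all tested genes. Their median difference was -0.83, beside -0.01 over all tested genes. Fn1 alone of the 10 passed the threshold of 0.05 on limma's adjusted p; 0.083% of the tested genes passed in the lower direction. At an unadjusted p under 0.05, 9 of the 10 were lower, beside 5.63% of the tested genes. The authors' deposited table marks 4 of the 10 as significantly lower, Fn1, Postn, Thbs1 and Vcan, and marks 0.854% of the genes tested here in that way. The authors' ratios for these 4 genes, 0.38, 0.42, 0.35 and 0.28, equal the single knockout library over the wild type mean. The marks are therefore not separate evidence from other knockout samples. The mark does not follow the authors' q-value alone. Tnc and Sparc are unmarked with q-values listed as 0.0 and 0.01, at log2 ratios of -0.88 and -0.84. With 1 library against 3, an exact permutation test of a single gene cannot give a p below 0.25. In tissue RNA, fewer cells of a type and less RNA per cell cannot be told apart.

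**Figure D1:**
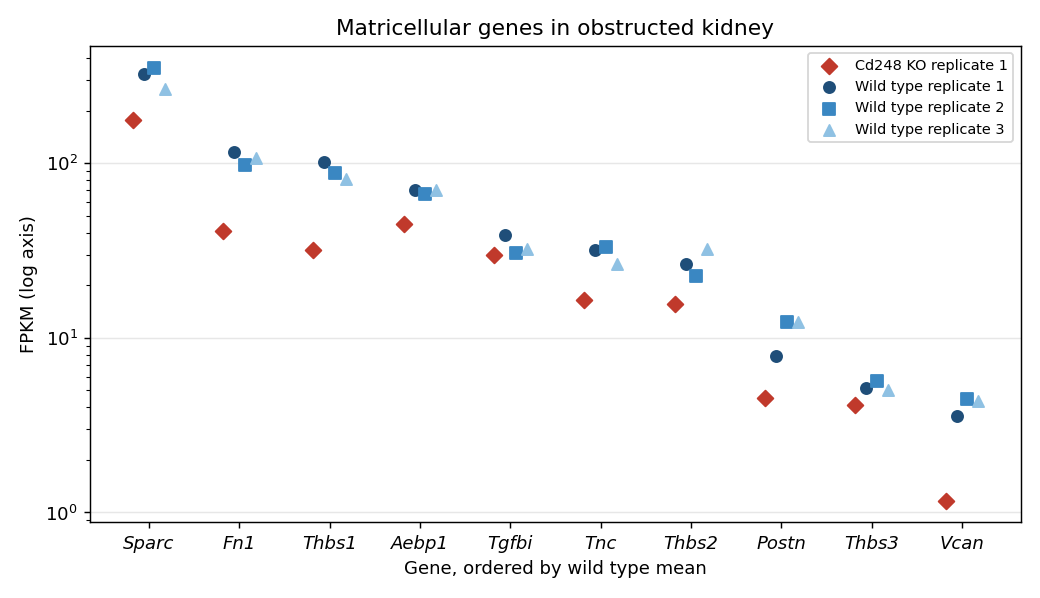
FPKM (log axis) of each of the 10 genes in the knockout library (diamonds) and in 3 wild type libraries (circles, squares and triangles), with genes ordered by wild type mean. The knockout point is the lowest of the 4 for every gene; the gap is widest for Vcan (1.17 against 3.55 to 4.46 FPKM) and narrowest for Tgfbi (29.9 against 30.6 to 38.6 FPKM).

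Summed over the 10 genes, the level was 366 FPKM against 725, 713 and 638 FPKM. This made up 0.1202% of the FPKM total of the knockout library and 0.271%, 0.255% and 0.224% of the wild type totals. Sparc was the most abundant of the set, followed in wild type by Fn1, Thbs1, Aebp1, Tgfbi, Tnc, Thbs2, Postn, Thbs3 and Vcan. Neighbours in this order had overlapping wild type ranges in 3 of 9 cases, Fn1 with Thbs1, Tgfbi with Tnc, and Tnc with Thbs2. Sparc, Fn1 and Thbs1 stood above 99% of the genes in the table in wild type (mean percentiles of 99.8, 99.3 and 99.1), and Vcan at a percentile of 71.9. In the knockout library the order differed in 1 place, where Aebp1 stood above Fn1 and Thbs1.

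RNA of Fn1, which encodes the scaffold protein fibronectin, was lower in the knockout library. Fn1 (ENSMUSG00000026193; GRCm38 chromosome 1, 71585520 to 71653200, minus strand) stood at 41.0 FPKM against 116, 97.4 and 107 FPKM. The wild type values spanned a ratio of 1.19, and the knockout value was 42.1% of the lowest of them. The knockout level was 2.60 times below the wild type mean of 107 ± 9.05 FPKM (SD, n = 3), which is a log2 difference of -1.35 (SE 0.13, limma adjusted p = 0.0456). The call was lost without wild type replicate 1 (adjusted p = 0.152), replicate 2 (0.196) or replicate 3 (0.264), and over all 11 alternatives the adjusted p ran from 0.0290 to 0.264 and passed in 3. The difference itself stayed between -1.49 and -1.29. The table gives 1 value for 16 Fn1 transcripts, so forms of fibronectin with and without the extra domains of wound and scar tissue were not separated.

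The thrombospondins are calcium-binding modular proteins that fall into a trimeric pair, Thbs1 and Thbs2, and pentamers such as Thbs3. Thbs1, an activator of latent TGF-beta that platelets also carry (chromosome 2, 118111876 to 118127133, plus strand), was at 31.8 FPKM against 101, 87.3 and 81.3 FPKM. The knockout value lay outside the wild type range, and its difference of -1.47 (SE 0.15) was the largest of the 10 genes on this scale. The limma adjusted p was 0.0550, and it passed after scaling to equal FPKM totals (0.0397) or after quantile normalization (0.0407), in a range of 0.0397 to 0.314 over the alternatives.

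Thbs2 (chromosome 17, 14665500 to 14694235, minus strand) was at 15.7 FPKM against 26.4, 22.5 and 32.5 FPKM, with wild type libraries that differed from each other by up to 1.44 times. Its difference was -0.74 (95% confidence interval -1.32 to -0.16, limma adjusted p = 0.391). Thbs3 (chromosome 3, 89215180 to 89226837, plus strand) was at 4.11 FPKM against 5.17, 5.64 and 5.06 FPKM, a difference of -0.30 (-0.57 to -0.02, limma adjusted p = 0.442). Thbs3 shares 318 exonic bases with Mtx1 on the opposite strand, and no source used here says that reads were counted by strand, so its value is uncertain. Mtx1, a mitochondrial import gene, was at 7.13 FPKM against 6.25, 6.01 and 7.08 FPKM. The thrombospondins thus ranged from a knockout level of 35.3% of the wild type mean for Thbs1 through 57.8% for Thbs2 to 77.7% for Thbs3.

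Vcan and Tnc encode large adhesion-modulating molecules of provisional matrix. Versican is a chondroitin sulfate proteoglycan that binds hyaluronan, and Vcan (chromosome 13, 89655312 to 89742509, minus strand) was at 1.17 FPKM against 3.55, 4.46 and 4.36 FPKM. This was the largest quotient of the set, 3.52 times below the wild type mean of 4.12 ± 0.50 FPKM (SD, n = 3). Its log2 difference was -1.23 (SE 0.15; adjusted p = 0.0876 by limma). When 0.1 FPKM was added before the logarithm in place of 1, it was -1.73. It passed after scaling to equal FPKM totals (limma adjusted p = 0.0310, range 0.0310 to 0.334 over the alternatives). Tenascin-C is a many-armed glycoprotein that loosens cell attachment to fibronectin. Tnc (chromosome 4, 63959785 to 64047015, minus strand) was at 16.5 FPKM against 31.8, 33.2 and 26.3 FPKM, with no overlap and a difference of -0.84 (95% confidence interval -1.26 to -0.42, limma adjusted p = 0.252).

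Periostin and TGFBI are relatives built from fasciclin domains, and both bind collagen and integrins. Postn (chromosome 3, 54361109 to 54391037, plus strand) was at 4.55 FPKM against 7.91, 12.3 and 12.4 FPKM. Wild type replicate 1 was the low one of the wild type libraries, and the ratio of 1.57 between the highest and the lowest was the widest of the 10 genes. The difference was -1.07 (95% confidence interval -1.82 to -0.33, limma adjusted p = 0.342), and -1.27 without wild type replicate 1 (0.108, range 0.108 to 0.727 over the alternatives). Tgfbi (chromosome 13, 56609523 to 56639562, plus strand) was at 29.9 FPKM against 38.6, 30.6 and 32.3 FPKM. The knockout value was 97.6% of the lowest wild type value, and the interval of the difference, -0.58 to 0.25, included 0 (limma adjusted p = 0.736).

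SPARC and AEBP1 both bind fibrillar collagen during its assembly. Sparc (chromosome 11, 55394500 to 55423183, minus strand) was at 176 FPKM against 325, 353 and 267 FPKM, with replicate 3 the lowest of the wild type libraries. The wild type mean was 315 ± 43.8 FPKM (SD, n = 3), and the difference was -0.82 (95% confidence interval -1.36 to -0.29, limma adjusted p = 0.315). With quantile normalization it was -1.06 (0.203, range 0.203 to 0.744). Aebp1, whose protein is also called ACLP and carries a discoidin domain (chromosome 11, 5861947 to 5872088, plus strand), was at 44.9 FPKM against 70.4, 66.5 and 70.5 FPKM. Its wild type libraries lay closest together of the 10 genes, with a coefficient of variation of 3.31%, and the difference was -0.61 (-0.86 to -0.37, limma adjusted p = 0.159).

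**Figure D2:**
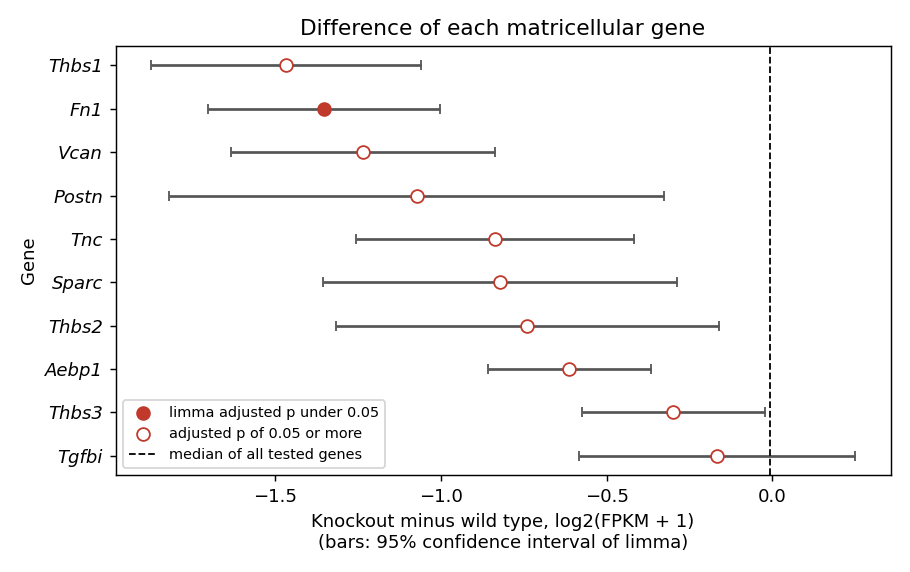
Knockout minus wild type difference of each gene on the log2(FPKM + 1) scale, with limma's 95% confidence interval as bars; the dashed line is the median of all tested genes (-0.01). Fn1 (filled) is the only gene past an adjusted p of 0.05, and the interval of Tgfbi alone includes 0.

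When each wild type library was set against the mean of the other wild type libraries, the median of the 10 genes was 0.06 for replicate 1, 0.03 for replicate 2 and -0.04 for replicate 3. Their single differences ran from -0.58, for Postn in replicate 1, to 0.40, for Thbs2 in replicate 3. The knockout differences from the wild type mean ran from -1.47 to -0.17, and for 9 of the 10 genes the difference was larger than the gene's own range over the wild type libraries. For Tgfbi it was smaller (0.17 against a range of 0.32). The same share over all tested genes was not computed, so this count is a description only. Scaling the libraries to the same FPKM total moved the median of all tested genes to -0.11. Relative to that median the 10 genes stood at between -1.48 (Thbs1) and -0.18 (Tgfbi), beside -1.46 and -0.16 as deposited.

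The 250 bases before annotated starts of these genes were searched for short motifs, both general promoter elements and motifs of factors active in scarring tissue. Why the 10 genes were low together was not tested. RefSeq promoters (GRCm38.p6) matched 8 of the 10 symbols, with no entry for Fn1 and Thbs1. Shown are those of Vcan, Postn and Tnc, the genes of the 8 with the largest quotients, each 5′ to 3′ on the strand of the gene and ending at the base before the RefSeq start (for Postn and Tnc, each with 2 listed starts, the one closer to the start of the GENCODE gene). They lie at chr13:89742513-89742762 (minus strand), chr3:54360857-54361106 (plus strand) and chr4:64047016-64047265 (minus strand). Capitals mark matches on either strand to TATAAA, the letters of the TATA box, or to GGGCGG, the GC box bound by Sp1. The reverse complement of GGGCGG is CCGCCC.
Vcan: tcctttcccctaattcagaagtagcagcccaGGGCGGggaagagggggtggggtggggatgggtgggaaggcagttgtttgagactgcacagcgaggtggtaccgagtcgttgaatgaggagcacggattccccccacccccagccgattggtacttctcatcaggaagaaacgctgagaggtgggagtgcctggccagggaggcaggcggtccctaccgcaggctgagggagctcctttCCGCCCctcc
Postn: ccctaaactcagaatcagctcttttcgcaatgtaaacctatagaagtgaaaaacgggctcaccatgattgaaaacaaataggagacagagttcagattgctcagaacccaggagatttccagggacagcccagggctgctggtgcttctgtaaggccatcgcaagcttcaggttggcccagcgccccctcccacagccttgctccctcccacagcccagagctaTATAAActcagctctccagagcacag
Tnc: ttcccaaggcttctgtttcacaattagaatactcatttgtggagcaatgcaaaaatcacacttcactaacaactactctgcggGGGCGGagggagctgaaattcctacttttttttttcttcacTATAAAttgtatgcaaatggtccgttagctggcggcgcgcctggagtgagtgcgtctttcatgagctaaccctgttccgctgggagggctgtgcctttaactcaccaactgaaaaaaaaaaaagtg

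The Postn window held TATAAA at 26 to 21 bases before the start, and the Vcan window held GGGCGG matches and no TATAAA. Of the 8 genes, 3 had TATAAA on either strand (Postn, Tnc and Thbs2), where 12.4% of 32851 RefSeq promoter windows of the same length hold it. GGGCGG was found for 4 (Tnc, Thbs3, Vcan and Tgfbi; 32.7% of windows), and CAGACA, the CAGA element of SMAD proteins, for 3 (Tnc, Sparc and Thbs2; 17.1%). GGAATG, the core of the TEAD motif (12.6%), TGANTCA, the AP-1 motif (6.75%), and the CArG box of serum response factor (1.47%) were found for 0 of 8. Both strands were searched for each, and the second window of Postn and of Tnc was included. The CAGACA of Tnc lies in its second window. Counts are of genes with a match in any window, whereas percentages are of single windows, so the units differ. A match in letters is a description and not a site.

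The deposited annotation gave the 10 genes several further labels in common. All 10 carry the term extracellular region, as do 5.39% of tested genes, and 8 carry cell adhesion (2.18%). Heparin binding was listed for 5, Fn1, Postn and the 3 thrombospondins (0.599% of tested genes). Response to mechanical stimulus was listed for Postn, Tnc and Thbs1 (0.332%), and platelet alpha granule for Sparc, Thbs1 and Thbs2 (0.0771%).

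Relatives of the 10 genes, in a list of 31 other matricellular genes, were mostly low as well. Of 24 tested, 0 passed limma's adjusted test in either direction, 13 were lower at an unadjusted p under 0.05, 20 lay below every wild type library and 0 above (28% of all tested genes lay above), and the median difference was -0.52. Ccn2, the connective tissue growth factor of scarring tissue, was at 50.5 FPKM against 146, 191 and 167 FPKM (limma adjusted p = 0.0554). Thbs4, a pentameric thrombospondin, was at 0.85 FPKM against 10.9, 19.1 and 6.40 FPKM, a difference of -2.71 with wide scatter among the wild type libraries (0.277). Fbln2, a fibulin that binds fibronectin, was at 4.69 FPKM against 19.5, 10.9 and 12.8 FPKM (0.309), and Cpxm2, a relative of Aebp1, at 1.74 FPKM against 4.14, 9.23 and 5.32 FPKM (0.410). Named after its value was seen, Spp1, the abundant matricellular osteopontin of injured tubules, was at 7227 FPKM, inside the wild type range of 6212 to 7505 FPKM.

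Collagens and the enzymes that process them, which assemble on the fibronectin scaffold, lay lower than the 10 genes by their median (-1.10). All 14 were below every wild type library, and 3 passed limma's adjusted test, Col12a1, Col1a1 and Col5a2. Col12a1, a fibril-associated collagen, fell from 49.8, 57.1 and 52.5 FPKM to 17.2 FPKM (adjusted p = 0.0192). Col1a1, of type I collagen, fell from 159, 170 and 160 FPKM to 68.8 FPKM (adjusted p = 0.0313), and Col5a2, of type V collagen, from 29.5, 30.9 and 29.1 FPKM to 14.4 FPKM (0.0313). Over the 11 alternatives the limma adjusted p passed in 6 for Col12a1 (up to 0.163), in 5 for Col1a1 (up to 0.309) and in 5 for Col5a2 (up to 0.261). Lox, which crosslinks collagen, was at 14.0 FPKM against 38.4, 40.04 and 27.1 FPKM (0.262).

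Receptors through which cells bind these proteins had a median of -0.22. Of 21 tested, 10 lay below every wild type library and 3 above, beside 31.2% and 28% of all tested genes. By limma's adjusted test 0 passed (5 lower and 1 higher at an unadjusted p under 0.05). Itga5, the alpha chain of the classical fibronectin receptor, was at 7.42 FPKM against 15.4, 12.0 and 12.1 FPKM (limma adjusted p = 0.299). Itga9, whose integrin binds tenascin-C, was at 5.87 FPKM against 10.7, 10.9 and 7.25 FPKM (0.499), and Lrp1, which takes up thrombospondins, at 14.3 FPKM against 24.3, 24.8 and 20.0 FPKM (0.307). Cd36, a thrombospondin receptor and fatty acid carrier, lay the other way at 39.3 FPKM against 14.3, 22.5 and 29.6 FPKM (0.543).

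TGF-beta drives transcription of many of these genes in fibroblasts, and its ligands, receptors and latency genes had a median of -0.26. Of 17 tested, 15 lay below every wild type library, 0 above, and 0 passed limma's adjusted test (7 lower at an unadjusted p under 0.05). Tgfb2 was at 1.91 FPKM against 3.23, 3.64 and 3.34 FPKM (limma adjusted p = 0.247) and Tgfb3 at 4.61 FPKM against 7.60, 9.54 and 7.63 FPKM (0.287). Lrrc32, which tethers latent TGF-beta to the cell surface, was at 6.74 FPKM against 14.5, 18.6 and 10.7 FPKM (0.413), and Ltbp1, which anchors it in the matrix, at 1.97 FPKM against 4.23, 6.15 and 3.69 FPKM (0.390).

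Proteases that cut these proteins had a median of -0.16. Of 19 tested, 10 lay below and 3 above every wild type library, beside 31.2% and 28% of all tested genes. By limma's adjusted test 0 passed (4 lower and 1 higher at an unadjusted p under 0.05). Mmp2 and its activator Mmp14 were at 24.0 and 23.9 FPKM, below wild type ranges of 33.3 to 44.2 and 33.8 to 43.8 FPKM (limma adjusted p = 0.345 and 0.326), and the versicanase Adamts4 was at 2.39 FPKM against 3.91 to 7.76 FPKM (0.443). Genes of fibrin and hyaluronan matrix had a median of -0.13. Of 11 tested, 4 lay below all wild type values, beside 31.2% of all tested genes. By limma's adjusted test 0 passed (1 lower at an unadjusted p under 0.05). Has2, which makes hyaluronan, was at 0.31 FPKM against 2.08, 0.60 and 0.64 FPKM (limma adjusted p = 0.670).

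**Figure D3:**
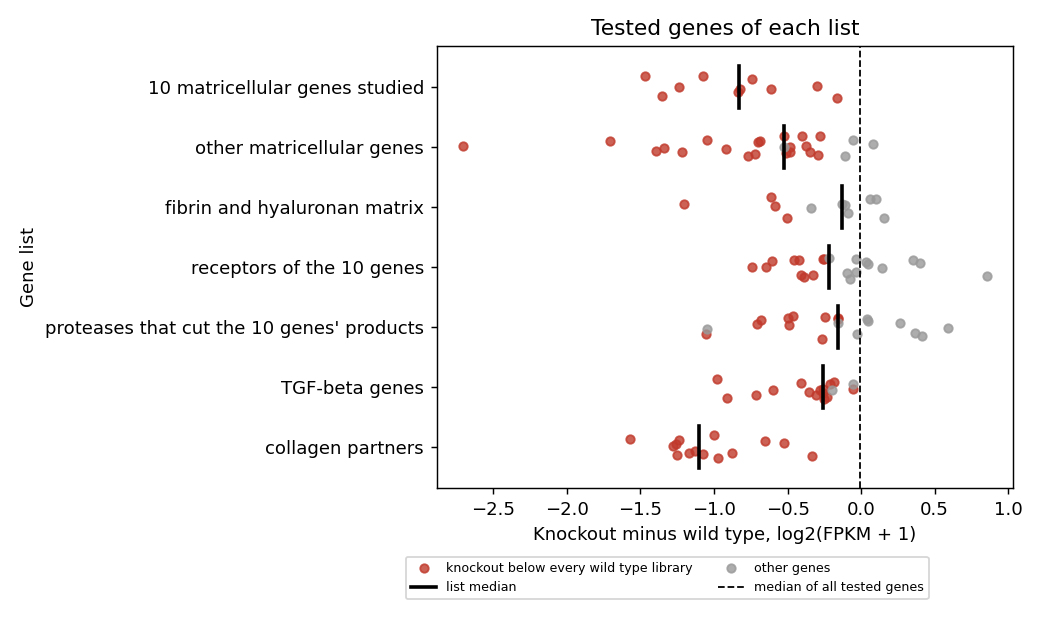
Knockout minus wild type difference of every tested gene in 7 lists, on the log2(FPKM + 1) scale; red points are genes whose knockout value is below every wild type library, black bars are list medians and the dashed line is the median of all tested genes. The medians are -0.83 for the 10 genes, -0.52 for other matricellular genes and -1.10 for collagen partners, and lie between -0.26 and -0.13 for the other lists.

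The genes whose profile over the 4 libraries was most like that of Fn1, by Euclidean distance of centred log2 values among 8595 genes averaging 5 FPKM or more, were Tpm2, a tropomyosin (0.14), Dtx3l, a ubiquitin ligase (0.19), Col1a1 (0.27), Nnt, a mitochondrial enzyme (0.30), and Lcn2, lipocalin 2 (0.31). The median gene lay at a distance of 1.18. Nearest to the mean profile of the 10 genes were C1qtnf6 (0.08), Dynlt1b (0.12), Sfrp1, a secreted WNT antagonist (0.12), Sulf1, a heparan sulfate sulfatase (0.13), and Col5a2 (0.13), where the median gene lay at 0.75. C1qtnf6, a secreted protein with a collagen-like stretch, was at 11.1 FPKM against 19.8, 20.8 and 19.5 FPKM.

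Markers of the cells that make these proteins were low in the same library. Of 17 tested fibroblast and myofibroblast markers, 15 lay below every wild type library and 2 passed limma's adjusted test, Acta2 and Col1a1; Col1a1, Col1a2 and Col3a1 are also on the collagen list. The call of Acta2, smooth muscle actin, held in 7 of 11 alternatives (limma adjusted p up to 0.119) and that of Col1a1 in 5. The summed level of the list was 418 FPKM in the knockout library and 830 to 1046 FPKM in the wild type libraries, with no marker at 0. This sum was carried by Col3a1, Col1a1, Acta2, Tagln and Col1a2, the most abundant of the list in wild type. Other markers differed less, with Pdgfra at 0.670 of its wild type mean, and Lum and Dpt inside their wild type ranges. Pdgfrb, a receptor of fibroblasts and pericytes, was at 27.3 FPKM against 40.8, 43.0 and 33.1 FPKM. Per Pdgfrb, Fn1 stood at 1.501 against 2.83, 2.27 and 3.22, Thbs1 at 1.16 against 2.48, 2.03 and 2.45, and Tgfbi at 1.10 against 0.95, 0.71 and 0.98. Fn1 per Pdgfrb and Thbs1 per Pdgfrb lay below every wild type library and Tgfbi per Pdgfrb above, with exact permutation p of 0.25, 0.25 and 0.5. Such ratios depend on the marker chosen. In the knockout library Pdgfrb stood at 0.701 of its wild type mean, Fn1 at 0.385 and Acta2 at 0.286. Fn1 per Col1a1 lay inside the wild type range, and ratios to Acta2 were not computed.

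Pericyte and smooth muscle markers summed to 100.1 FPKM against 123 to 150 FPKM, where 10 of 11 were below all wild type values, and endothelial markers to 185 FPKM against 244 to 309 FPKM, with 12 of 12 below. Platelet markers, whose cells carry Thbs1 and Sparc protein, summed to 16.5 FPKM against 28.5 to 65.8 FPKM, and 2 of 3 tested were below. Of these, Pf4 was close to the wild type range (11.5 FPKM against 37.3, 12.3 and 17.9 FPKM). Itga2b lay above every wild type library, at 0.85 FPKM against 0.72, 0.78 and 0.80 FPKM. Urothelial markers summed to 26.1 FPKM against 98.5, 102 and 30.6 FPKM, with 6 of 7 below and Upk2 listed at 0 in the knockout library. Wild type replicate 3 was thus close to the knockout library in this sum. Mesothelial markers summed to 31.7 FPKM against 46.3 to 89.5 FPKM, where 3 of 4 were below all wild type values. Most of that gap came from Krt19, at 15.9 FPKM against 60.5, 63.8 and 31.2 FPKM. Gpm6a lay above every wild type library, at 14.55 FPKM against 9.62, 14.1 and 13.1 FPKM. Immediate early and stress genes summed to 202 FPKM against 223 to 320 FPKM, with 10 of 12 below.

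B and plasma cell markers summed to 4606 FPKM in the knockout library and to between 88.8 and 158 FPKM in the wild type libraries, with 7 of 9 tested past limma's adjusted test, beside 0.64% of all tested genes in the higher direction; markers absent from wild type pass the filter only when high in the knockout library. Of the 7, Mzb1 passed in all 11 alternatives, Pou2af1 in 9 and Jchain in 7 of 11, Igkc in 6 of 10, Ighm in 5 of 10, Cd79a in 4 of 11 and Derl3 in 4 of 10. T cell markers summed to 63.3 FPKM against 36.9 to 53.8 FPKM, with 9 of 10 tested above every wild type library. Summed levels of macrophage, neutrophil, proximal tubule, loop of Henle, podocyte and adipocyte markers lay inside their wild type ranges, and that of collecting duct markers was 123 FPKM against 103 to 121 FPKM. The macrophage sum was carried by Lyz2 (662 of 1263 FPKM). Beside 28% of all tested genes, 3 of the 13 macrophage genes lay above every wild type library. Of these Ly6c2, a monocyte marker, passed limma's adjusted test at 7.44 FPKM against 2.52, 2.56 and 2.35 FPKM (adjusted p = 0.0275; past the threshold in 5 of 11 alternatives), and Ccr2 (24.7 against 20.4, 13.7 and 14.2 FPKM) and Cx3cr1 did not. The part of these cell types in the levels of the 10 genes was not tested.

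**Figure D4:**
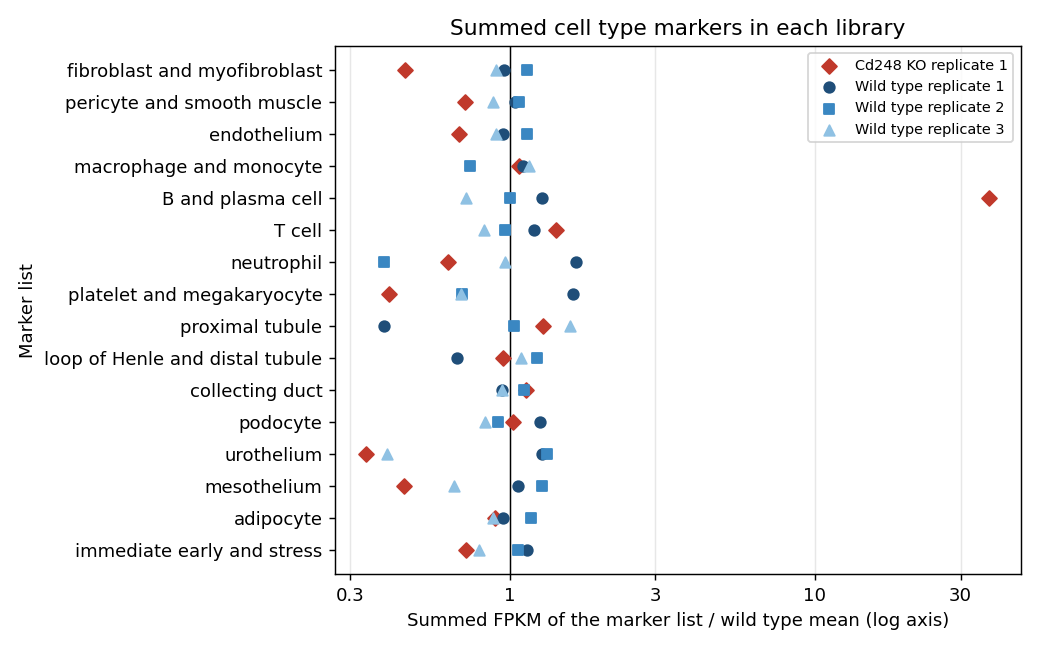
Summed FPKM of each marker list in each library divided by its wild type mean (log axis), with the knockout library as diamonds and wild type replicates 1, 2 and 3 as circles, squares and triangles. The knockout library stands at 0.455 of the wild type mean for fibroblast and myofibroblast markers and at 37.3 for B and plasma cell markers, outside the wild type points in both. The fibroblast and myofibroblast sum is carried by Col3a1, Col1a1, Acta2, Tagln and Col1a2.

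**Figure D5:**
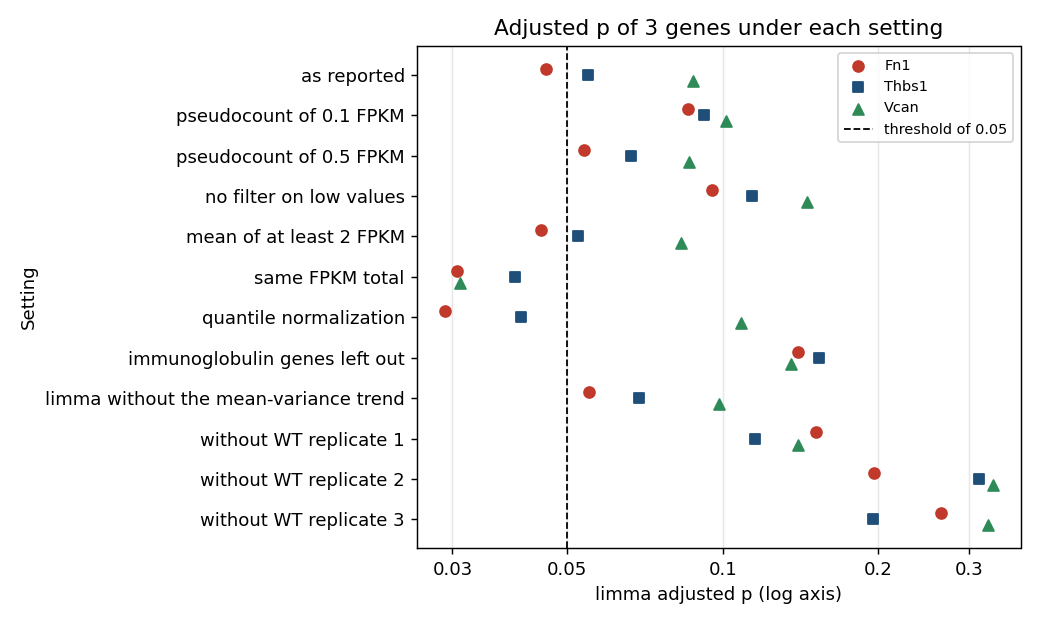
limma adjusted p (log axis) of Fn1, Thbs1 and Vcan as reported and under each alternative, with the threshold of 0.05 dashed; where immunoglobulin genes were left out, libraries were also rescaled to the same remaining total. Fn1 lies past the threshold under 3 of 11 alternatives, Thbs1 under 2 and Vcan under 1, and none of the 3 does without 1 of the wild type libraries.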

How the data were processed

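mRNA was measured in obstructed mouse kidneys; groups and replicate numbers came from the sample titles. The submitters' processing notes name cutadapt 1.9, FastQC, HISAT2 2.0.4 and the build mm10, without their roles; which program gave the expression values they do not say. The deposited expression values are FPKM, per the file headers. The authors' deposited ratio, its log2 and the p-value and q-value columns come from a test by the authors that no source used here names. No whole-read steps were found in low FPKM, which leaves depth unknown, and no counting interval was made.

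Values were taken as log2(FPKM + 1), filtered at a mean of 0.5 FPKM over the libraries, and fitted for all genes with limma 3.58.1 (mean-variance trend, two-sided, Benjamini-Hochberg, threshold 0.05), with the script checked on simulated data. The fit had 2 residual and 2.32 prior degrees of freedom; only wild type libraries inform each gene's spread, which the single knockout library is taken to share. Gene coordinates are from GENCODE M21 (GRCm38), which holds 33572 of the 33679 gene identifiers. The 10 genes and all lists were chosen with earlier results of these data known. Beyond the 10 genes and Cd248, genes named were those past the threshold in each pathway list, up to 4 others with the largest absolute differences at 1 FPKM or more, and the 5 nearest profiles, of which some are not reported here; Spp1, marker genes and some gene ratios were named after their values were seen. Alternatives changed the pseudocount, filter, scaling, model, genes tested and wild type libraries used.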

Additional observations from a re-analysis of the deposited data

How the results depend on the processing

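The 10 genes kept their direction in all 110 refits (10 genes, 11 alternatives). Under every alternative all 10 lay below every wild type library, with the lowest value taken over the remaining libraries where 1 was left out. Most alternatives could not change either result. A gene below every wild type library stays below under another pseudocount, filter or model, or with 1 wild type library left out. Equal FPKM totals lower the knockout library further, since its total of 304426 was the largest. Only quantile normalization and the refit without immunoglobulin genes could have differed. By limma's adjusted test 1 of the 10 passed, and 0 passed with a pseudocount of 0.1 or 0.5 FPKM, with no filter, with the immunoglobulin genes left out and the libraries rescaled to the same remaining FPKM total (2 choices changed together), or without the mean-variance trend; at an unadjusted p under 0.05 these fits gave 9, 9, 8, 9 and 9. With the same FPKM total 3 passed, and with quantile normalization 2. Leaving out wild type replicate 1, 2 or 3 gave 0 to 0 genes past the adjusted test (7, 8 and 7 unadjusted). The median difference, -0.83, became -0.96 with the same FPKM total, -0.97 with quantile normalization and -0.88 with the immunoglobulin genes left out and the rescaling, and -0.93 to -0.80 without 1 wild type library. Over all genes, 122 passed, against 39 with a pseudocount of 0.1 FPKM, 205 with no filter, 6 with the immunoglobulin genes left out and the rescaling, whose parts were not separated, and 53, 73 and 45 without replicates 1, 2 and 3. The cause was not tested. No paired analysis was possible because the knockout group has 1 library, so the groups share fewer than 2 replicate numbers.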

Other observations

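Ratios between genes within a library, which do not depend on how libraries are scaled, set some of the 10 genes apart; the pairs were chosen after their values were seen. Values are for the knockout library against wild type replicates 1, 2 and 3. Fn1 per Col1a1, fibronectin per type I collagen, was 0.596 against 0.727, 0.572 and 0.665, inside the wild type range. Thbs1 per Fn1 was 0.775, also inside the wild type range of 0.762 to 0.896. Tgfbi per Fn1 was 0.730 against 0.334, 0.314 and 0.303, outside a narrow wild type range. Postn per Tgfbi, the fasciclin pair, was 0.152 against 0.205, 0.402 and 0.383. Thbs1 per Thbs3 was 7.72 against 19.6, 15.5 and 16.1, and Thbs1 per Thbs2 was 2.03 against 3.84, 3.88 and 2.50. For the last 4 ratios the exact two-sided permutation p was 0.25, the smallest that 1 library against 3 can give, over 12 ratios computed, and no adjusted value can pass 0.05. Sparc made up 48.2% of the summed FPKM of the 10 genes in the knockout library, inside the wild type range of 41.8% to 49.5%, and Fn1 11.2% against 13.7% to 16.7%.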
